A study of Homo sapiens with 3 samples.

Results

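The genes described here are MDM2 and 8 transcriptional targets of the tumour suppressor p53, namely CDKN1A, PHLDA3, GDF15, TP53I3, TP53INP1, ZMAT3, FAS and BBC3. They were taken by name, with earlier results of these data known. Every probe set of the array whose platform annotation gives 1 of these symbols and no other was used. This gave 30 of 54675 probe sets and 8 of 19775 genes. BBC3, which encodes the apoptosis inducer PUMA, had no probe set of that kind and was not analysed here. The 3 arrays, with 1 array per group, held RNA of a human colorectal cancer line infected with a virus for full-length LATS2 (LATS2), with a virus for a LATS2 fragment that ends at residue 625, upstream of the kinase domain (LATS2N), or with an empty-vector virus (control). The sample labels name the line SW620, whereas the series' design text names SW480 and describes stable expression of each construct. With 1 array per group no comparison has a replicate check, a test or a standard deviation.

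p53 is a transcription factor that accumulates after DNA damage and other stress and switches on genes for cell cycle arrest, repair and cell death. MDM2 is both its target and its inhibitor, a ubiquitin ligase that binds p53 and marks it for degradation, which closes a feedback loop. LATS2, a Hippo pathway kinase, is known to bind MDM2 and to limit its action on p53. SW480 and SW620 are both known to carry mutant p53.

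Signals were MAS5 intensities, and the median over all probe sets and arrays, 50.5, served as a floor to which lower signals were raised for the log2 ratios. Each gene was represented by its brightest probe set and was called when its floored signals differed at least 2-fold between a pair of arrays, a call of size alone. A ratio against an array below the floor is a bound and is given as "at least". Noise was gauged from how far apart probe sets of the same gene lay. On LATS2 against control this gave a robust SD, on the log2 scale, of 0.44 for dimmer signals below 100, 0.34 from 100 to 200, 0.27 from 200 to 500 and 0.18 from 500 to 2000. On LATS2N against control the same values were 0.48, 0.33, 0.24 and 0.15. This spread leaves out differences between cultures.

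The labelled cell type was checked first. All 12 epithelial and colon markers had a probe set, and 10, 11 and 9 of them lay above the floor on the LATS2, LATS2N and control arrays, with EPCAM and the keratins KRT8, KRT18 and KRT19 between 16608 and 47247 on all arrays. CDX1, CEACAM5 and LGALS4 were below the floor on the control array. The largest ratios among the others were those of KRT20 (112 and 127 on LATS2 and LATS2N, against 109 on control), CDX2 (194 and 141, against 177) and VIL1 (3948 and 4666, against 5013). The direction was shared by only 2 of 4 usable VIL1 probe sets on either construct array and by 1 of 2 for CDX2 on LATS2N. Of 8 measured markers of other cell types, 3, 4 and 4 lay above the floor, with summed signals of 2642, 2481 and 2125 on the LATS2, LATS2N and control arrays. The matrix gene LUM made up most of these sums, at 1884 and 1635 on LATS2 and LATS2N against 1519 on control. The collagen gene COL1A1 read 596 and 607 against 325, and the endothelial gene PECAM1 read 85.0 and 91.6 against 142. On either construct array 1 of 2 usable LUM and 2 of 3 usable PECAM1 probe sets shared the direction, and COL1A1 had 1 usable probe set of 5. PTPRC, CD3E, CDH5 and COL1A2 stayed below the floor on every array, while DCN read 23.5 and 62.6 against 57.3. The samples are labelled as a cell line and not as a tissue. Whether other cells had a part in the results below was not tested, and in bulk RNA fewer cells of a type and less RNA per cell cannot be told apart. LATS2 itself was read above the floor by a pair of probe sets, at 377 and 409 on the LATS2 and LATS2N arrays against 385 on control, and at 219 and 219 against 206. Which part of the transcript they read is not known here, so they do not check the labels.

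The promoter sequences are shown first because p53 acts through a DNA site that can be looked for in them. RefSeq promoter windows of assembly GRCh38.p14, from 250 bases before to 50 bases after an annotated start, were found for 7 of the 9 genes, in 13 windows. PHLDA3 and TP53INP1 had no entry. The p53 consensus site, 20 bases made of a 10-base unit repeated without a gap, was searched with at most 2 mismatches and with the central C and G of both units intact. The consensus equals its own reverse complement, so a single pass covers both strands. It matched in 3 of the 13 windows and in 2 genes, MDM2 and FAS, and in 0.285% of all 35116 windows. The windows below, printed 5′ to 3′ on the strand of the gene with the matched site in capitals, are the upstream and the inner start of MDM2, the FAS start with a match and, for contrast, CDKN1A, whose well-known p53 sites lie farther upstream.
MDM2, upstream start, chr12:68807922-68808221, plus strand: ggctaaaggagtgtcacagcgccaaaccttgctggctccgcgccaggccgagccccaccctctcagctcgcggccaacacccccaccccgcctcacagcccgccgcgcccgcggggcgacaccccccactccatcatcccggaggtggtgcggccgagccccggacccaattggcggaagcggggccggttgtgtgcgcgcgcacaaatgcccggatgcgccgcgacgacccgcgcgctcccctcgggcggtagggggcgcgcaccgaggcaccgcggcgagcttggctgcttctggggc
MDM2, inner start, chr12:68808767-68809066, plus strand: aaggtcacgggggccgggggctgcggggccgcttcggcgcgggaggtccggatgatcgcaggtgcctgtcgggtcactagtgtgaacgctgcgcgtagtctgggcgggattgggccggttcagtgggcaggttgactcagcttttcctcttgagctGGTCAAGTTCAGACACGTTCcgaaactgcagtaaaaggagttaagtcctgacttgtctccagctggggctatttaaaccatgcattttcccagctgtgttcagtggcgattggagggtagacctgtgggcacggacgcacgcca
FAS, chr10:88991181-88991480, plus strand: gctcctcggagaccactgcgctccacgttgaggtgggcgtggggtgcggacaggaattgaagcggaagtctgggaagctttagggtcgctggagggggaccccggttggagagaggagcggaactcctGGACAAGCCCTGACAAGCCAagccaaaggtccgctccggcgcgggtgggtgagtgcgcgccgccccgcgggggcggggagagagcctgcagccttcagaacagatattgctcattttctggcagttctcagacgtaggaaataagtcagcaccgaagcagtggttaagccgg
CDKN1A, chr6:36678464-36678763, plus strand: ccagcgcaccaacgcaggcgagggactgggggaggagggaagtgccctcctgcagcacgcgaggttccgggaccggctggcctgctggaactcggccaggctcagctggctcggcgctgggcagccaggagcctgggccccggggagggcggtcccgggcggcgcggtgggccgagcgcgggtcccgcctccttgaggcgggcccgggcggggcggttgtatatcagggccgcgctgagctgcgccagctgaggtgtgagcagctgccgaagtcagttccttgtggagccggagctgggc
The inner MDM2 start is the one known as the p53-responsive promoter, and the upstream window held no match. The second inner window of MDM2 overlaps the one printed and holds the same site. A match describes letters in the reference genome and shows no binding in these cells.

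MDM2, the ubiquitin ligase of the feedback loop, was covered by 10 probe sets, of which 3 lay above the floor on all arrays, 2 on some and 5 on none. Its brightest probe set, 229711_s_at, read 1046 on LATS2 and 1197 on LATS2N, against 1406 on control. Both construct arrays were lower, with log2 ratios of -0.43 and -0.23, and 10.7% and 26.4% of genes of like brightness were at least as far apart in these comparisons. The next brightest, 225160_x_at, was level, at 524 on LATS2, 533 on LATS2N and 528 on control. Probe set 244616_x_at read 167 on LATS2 and 423 on LATS2N, against 211 on control. That is 2.00-fold higher on LATS2N than on control, a direction that the brightest probe set does not share, and 2.54-fold lower on LATS2 than on LATS2N. Probe set 217542_at lay below the floor on LATS2, at 48.3, and read 69.7 on LATS2N and 107 on control, at least 2.12-fold lower on LATS2 than on control. The fifth usable probe set, 217373_x_at, stayed between 46.8 and 64.5 on the 3 arrays. All 5 usable MDM2 probe sets were lower on LATS2 than on control, while on LATS2N 3 were higher and 2 lower. Among 306 genes with 5 usable probe sets, all were lower on LATS2 than on control in 10.8%.

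**Figure D1:**
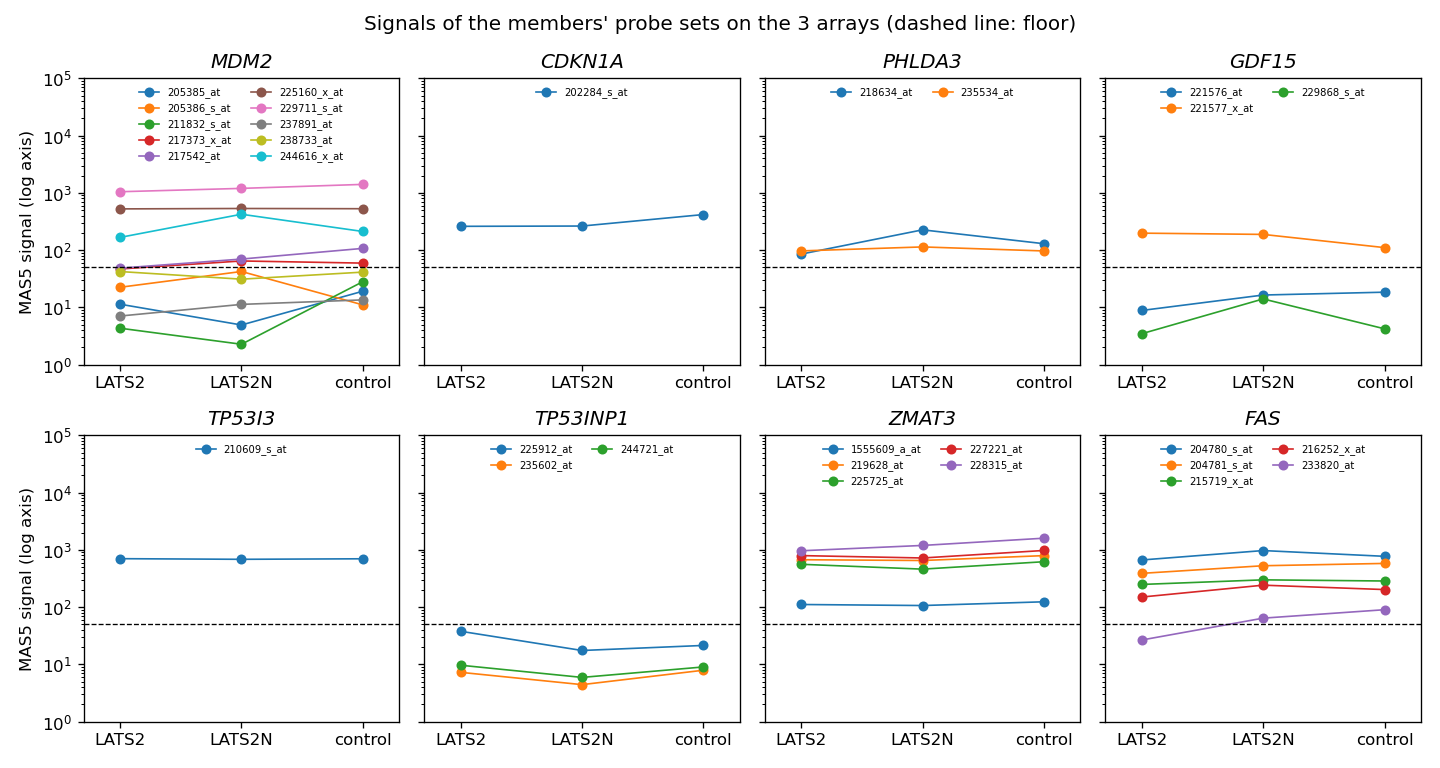
MAS5 signal on a log axis of every member probe set on the LATS2, LATS2N and control arrays, 1 panel per gene, with 1 line per probe set and the floor of 50.5 dashed. Heights of different probe sets cannot be compared. CDKN1A and all 5 ZMAT3 probe sets are highest on control, the brightest GDF15 probe set is lowest there, PHLDA3 peaks on LATS2N, TP53I3 is flat, and the 3 TP53INP1 probe sets lie below the floor.

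CDKN1A encodes p21, the cyclin-dependent kinase inhibitor through which p53 arrests the cell cycle. Its only probe set read 260 on LATS2 and 263 on LATS2N, against 418 on control. Both construct arrays were lower, 1.61-fold and 1.59-fold, and differed from each other by a log2 ratio of -0.02. Neither ratio, -0.68 or -0.67, reached the 2-fold call, and each was over 2 times the spread between probe sets at that brightness, 0.27 and 0.24. Among genes of like brightness, 6.11% stood at least as far apart between LATS2 and control, and 3.01% between LATS2N and control. Both ratios share the control array, so a high reading there and low readings on both constructs cannot be told apart.

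PHLDA3 encodes a small protein with a pleckstrin homology domain that holds back the kinase AKT. Its brighter probe set, 218634_at, read 85.0 on LATS2 and 226 on LATS2N, against 129 on control. LATS2 was the lowest array and LATS2N the highest, with log2 ratios against control of -0.60 and 0.81. Among genes whose dimmer signal was below 100, 24.8% stood at least as far apart between LATS2 and control. From 100 to 200, 4.76% did so between LATS2N and control. Between the constructs the ratio was -1.41, a 2.66-fold difference and the only call among the members in any comparison. Of 2857 genes whose dimmer signal was below 100, 0.91% were at least as far apart. Genes below 100 include some with 1 array below the floor, whose ratios are bounds, so the 24.8% and 0.91% can be too low. With the median over the probe sets the ratio was -0.82 and this call was lost. The other probe set, 235534_at, read 96.7, 114 and 96.5 on LATS2, LATS2N and control. It shared the direction between the constructs, with a log2 ratio of -0.23, but showed no lower level on LATS2 than on control. Both probe sets were dim, and the spread between probe sets at that brightness was 0.51 for LATS2 against LATS2N.

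GDF15, a secreted stress cytokine of the TGF-beta superfamily, was the only member at least 1.5-fold higher on both construct arrays. Its usable probe set, 221577_x_at, read 198 on LATS2 and 188 on LATS2N, against 110 on control. These are 1.79-fold and 1.70-fold higher, log2 ratios of 0.84 and 0.77, short of the call and over 2 times the spreads of 0.34 and 0.33. Among genes of like brightness 6.33% and 6.14% stood at least as far apart. The suffix _x_at marks probes that can also bind other transcripts, and the remaining GDF15 probe sets were below the floor on every array, between 3.45 and 18.4, so this difference was read by 1 probe set.

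ZMAT3 encodes a zinc finger protein that binds RNA and controls the stability and splicing of transcripts. All 5 of its probe sets were above the floor on every array, and all 5 were lower on both construct arrays than on control. The brightest, 228315_at, read 964 on LATS2 and 1194 on LATS2N, against 1599 on control, which is 1.66-fold and 1.34-fold lower. Among genes of like brightness 1.35% and 6.15% stood at least as far apart. The next, 227221_at, read 794 on LATS2 and 721 on LATS2N, against 976 on control. Probe set 219628_at read 672 and 651 on the construct arrays, in the same order, against 793 on control. Probe set 225725_at read 559 and 460, against 621, and 1555609_a_at read 111 and 106, against 124. The log2 ratios ran from -0.73 to -0.15 for LATS2 and from -0.44 to -0.22 for LATS2N, with medians of -0.24 and -0.42. The brightest probe set had the lowest LATS2 ratio, and the other 4 were lower on LATS2N than on LATS2. Of 304 genes with 5 usable probe sets, 10.9% had all of them lower on LATS2N than on control, and of 282 with 5 usable in both comparisons, 4.96% had all of them lower in both.

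FAS encodes the cell surface death receptor that starts the extrinsic route of apoptosis, and p53 is known to raise it. Its brightest probe set, 204780_s_at, read 665 on LATS2 and 972 on LATS2N, against 771 on control. Of genes of like brightness, 39.8% and 12.3% stood at least as far apart from control on LATS2 and LATS2N, and 4.12% between the constructs. Probe set 204781_s_at read 388 on LATS2 and 528 on LATS2N, against 579 on control. On both 204780_s_at and 204781_s_at, LATS2 was the lowest array, and the order of LATS2N and control differed. Probe set 215719_x_at read 249 and 299, against 286, and 216252_x_at read 150 and 241, against 202, and in both LATS2N stood above control. The dimmest, 233820_at, was below the floor on LATS2, at 26.6, and read 64.1 on LATS2N and 90.0 on control. All 5 probe sets were therefore lower on LATS2 than on control, with log2 ratios from -0.58 to -0.20 for the 4 above the floor and at least 1.78-fold for 233820_at, and none reached the 2-fold call. Against LATS2N all 5 were lower on LATS2 as well, from -0.69 to -0.27 for the same 4 and at least 1.27-fold for 233820_at. Among 311 genes with 5 usable probe sets, 7.72% had all of them lower on LATS2 than on LATS2N. LATS2N stood on either side of control, with 3 probe sets higher and 2 lower.

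TP53I3, a quinone oxidoreductase linked to reactive oxygen species, read 701 on LATS2 and 684 on LATS2N, against 698 on control. Its log2 ratios were 0.01 and -0.03, inside the spreads of 0.18 and 0.15. TP53INP1, a stress-induced nuclear protein that promotes cell death and autophagy, gave no usable signal. Its 3 probe sets read from 7.24 to 37.8 on LATS2, from 4.41 to 17.4 on LATS2N and from 7.88 to 21.4 on control, all below the floor, so no ratio is given.

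**Figure D2:**
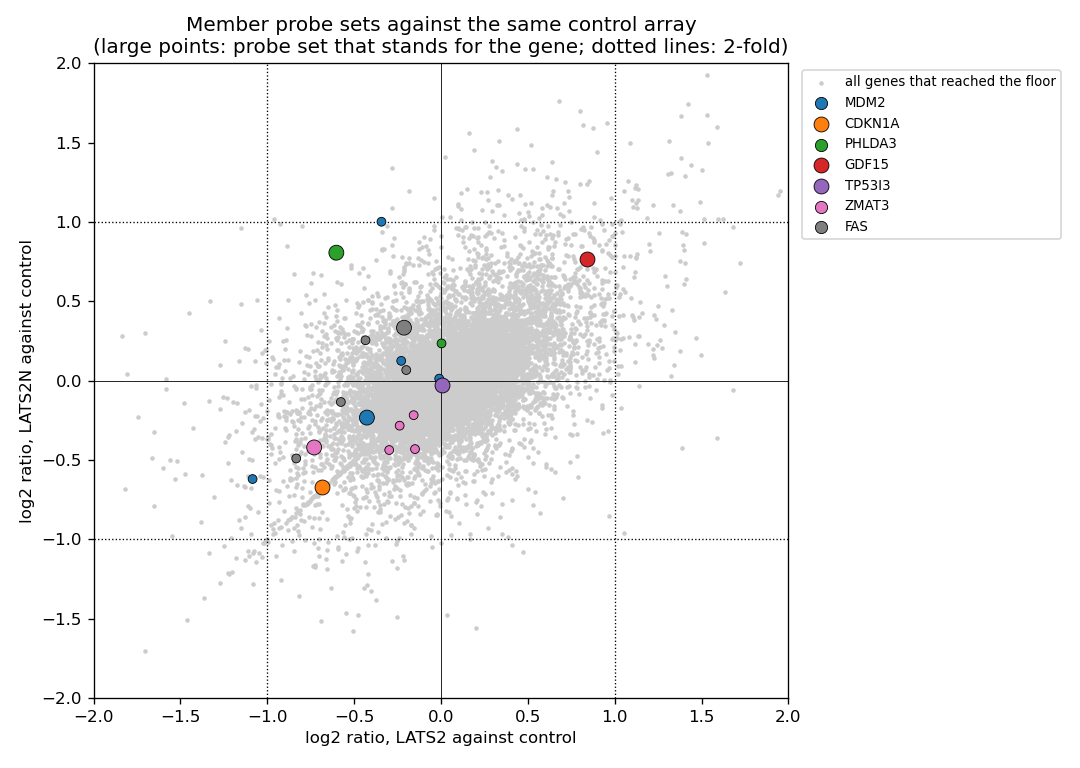
Log2 ratio of LATS2 against control (horizontal) and of LATS2N against control (vertical) for 20 usable member probe sets, coloured by gene, with the genes that reached the floor in grey and 2-fold marked by dotted lines. Of 12826 genes, 4 lie outside the drawn range. Of the member points 17 lie left of 0, with CDKN1A at the lower left and the brighter PHLDA3 probe set at the upper left. MDM2, ZMAT3 and FAS hold 5 each of these 17. The other 3 are GDF15, far to the right, and TP53I3 and the dimmer PHLDA3 probe set, at 0.01 and 0.00 on the horizontal axis. The axes share the control array, and the share of all probe sets left of 0 is not given.

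As a group, 7 of the 8 measured members reached the floor, each on all 3 arrays. The members were chosen with earlier results of these data known, so the counts and medians below only describe them. None was called between LATS2 and control, where 1.8% of 13186 genes were, and none between LATS2N and control, where 1.51% of 13245 genes were. Between LATS2 and LATS2N 1 was called lower, PHLDA3, beside 1.0% of 13175 genes, and none with the median over probe sets. On the LATS2 array 5 members read below control and 2 above it, with a median log2 ratio of -0.43, while over all genes 45.2% were lower and the median was 0.03. On LATS2N 4 were lower and 3 higher, with a median of -0.03 beside 0.02 over all genes. For LATS2 against LATS2N the median was -0.19 beside 0.01. Over single probe sets, 17 of 20 usable ones were lower on LATS2 than on control and 11 of 20 on LATS2N, and those of 1 gene share their target. Of the 17, MDM2, ZMAT3 and FAS gave 5 each, among them 225160_x_at of MDM2 at -0.01. The median over the 20 was -0.27 on LATS2, beside 0.01 over all 29500 usable probe sets. The share of all probe sets that were lower is not given here. Past 2-fold were 1 on LATS2 against control (217542_at of MDM2, a bound), beside 2.26% of all probe sets, and 1 on LATS2N against control (244616_x_at of MDM2), beside 1.77%. Between the constructs 2 were past it, 244616_x_at and 218634_at of PHLDA3, beside 1.95%. At a 1.5-fold limit CDKN1A, PHLDA3 and ZMAT3 were lower and GDF15 higher on LATS2, beside 10.3% of all genes in either direction. At that limit CDKN1A was lower and PHLDA3 and GDF15 higher on LATS2N, beside 8.13%.

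The other p53 targets, from a list of 30 genes of which 28 had a probe set and 26 reached the floor held no call in any of the 3 comparisons. Compared with control, 18 were lower and 8 higher on LATS2 (median log2 ratio -0.05). On LATS2N 14 were lower and 12 higher, with a median of -0.02. Among the 16 arrest and repair genes, SESN2, a sestrin that restrains mTORC1, had the largest ratios, at 229 on LATS2 and 249 on LATS2N against 369 on control. PLK3, a polo-like kinase, read 145 and 192 against 149, and POLH, a translesion DNA polymerase, read 229 and 180 against 239. For POLH only 2 of 5 usable probe sets shared the direction on LATS2 and 1 of 5 on LATS2N, for SESN2 2 of 2 and 1 of 2, and for PLK3 2 of 3 and 3 of 3. GADD45A, a growth arrest gene, read 4892 and 5003 against 4272, and CCNG1, cyclin G1, read 7436 and 8034 against 7698. Among the 10 death and survival genes that reached the floor, the death receptor gene TNFRSF10A read 2327 and 2785 against 3146 and the caspase gene CASP6 read 1762 and 1803 against 1291. The direction was shared by 2 of 3 usable TNFRSF10A probe sets on LATS2 and by 3 of 3 on LATS2N, and by both CASP6 probe sets on either array. PIDD1, a death domain scaffold, read 245 and 168 against 248 on its brighter probe set and 46.5 and 125 against 6.74 on the other, so its direction on LATS2N depended on the probe set. With the median over probe sets PIDD1 was called higher on both construct arrays. Its median on control then lay below the floor, so both calls are bounds that rest on the dimmer probe set. BAX, the mitochondrial pore protein, had log2 ratios of -0.14 and -0.36. EDA2R and SPATA18 lay below the floor on every array. GADD45A, CCNG1, BAX, EDA2R and SPATA18 are not among the genes the rule names and were picked once their values were known.

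Regulators of p53 were mixed. Of 24 genes 22 had a probe set and all reached the floor, and none was called. On LATS2 14 exceeded control and 8 did not, the median ratio being 0.12, and on LATS2N 9 exceeded it and 13 did not, the median being -0.03. PPP1R13B, which encodes ASPP1, a cofactor that steers p53 to apoptosis genes, read 201 on LATS2 and 110 on LATS2N, against 107 on control, a log2 ratio of 0.91 on LATS2. It was the highest of the list there, on a single probe set. TP53BP1, a DNA damage response scaffold, read 1031 and 683 against 956, and CREBBP, an acetyltransferase coactivator of p53, read 1088 and 765 against 1103, so both were lowest on LATS2N. On LATS2N the direction was shared by 1 of 2 usable TP53BP1 and 3 of 3 usable CREBBP probe sets. MDM4, the partner of MDM2, read 511 on LATS2 and 693 on LATS2N, against 685 on control, but only 3 of its 5 usable probe sets were lower on LATS2. MDM4 was likewise picked once its values were known.

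Relatives of the members gave no call either. Of 12 paralogs and p53 family genes 11 had a probe set. CDKN1B, the p27 relative of CDKN1A, read 2889 on LATS2 and 2894 on LATS2N, against 2812 on control, with log2 ratios of 0.04 for both. It was picked once its values were known. CDKN1C, the p57 relative, read 1340 and 1504 against 1227, a direction shared by 2 of 4 usable probe sets on LATS2 and 3 of 4 on LATS2N. PHLDA2, an imprinted relative of PHLDA3, read 2750 on LATS2 and 4214 on LATS2N, against 3914 on control, with log2 ratios of -0.51 and 0.11. It too was lowest on LATS2 and highest on LATS2N, though only 1 of its 3 probe sets was usable. Its LATS2N ratio lay near the spread of 0.09 at that brightness. TP53INP2, an autophagy protein, read 83.5 and 109 against 119. TP73, the p53 relative, read 77.7 and 84.4 against 43.7, below the floor on control and so at least 1.54-fold and 1.67-fold higher, and BMF, a pro-apoptotic BCL2 relative, read 18.3 and 77.1 against 14.9, above the floor on LATS2N alone. Both were picked once their values were known.

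Cell cycle genes that p53 represses through p21 and the DREAM complex were close to level. Of 16 genes 15 had a probe set, all above the floor, and none was called. On LATS2 7 exceeded control and 8 did not, the median ratio being -0.03, and on LATS2N 9 were higher and 6 lower, with a median of 0.08. CDC25C, a mitotic phosphatase, read 905 on LATS2 and 603 on LATS2N, against 560 on control, a log2 ratio of 0.69 on LATS2. The mitotic kinase gene PLK1 read 998 and 983 against 1211, and FOXM1, a mitotic transcription factor, read 4548 and 3827 against 4695.

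**Figure D3:**
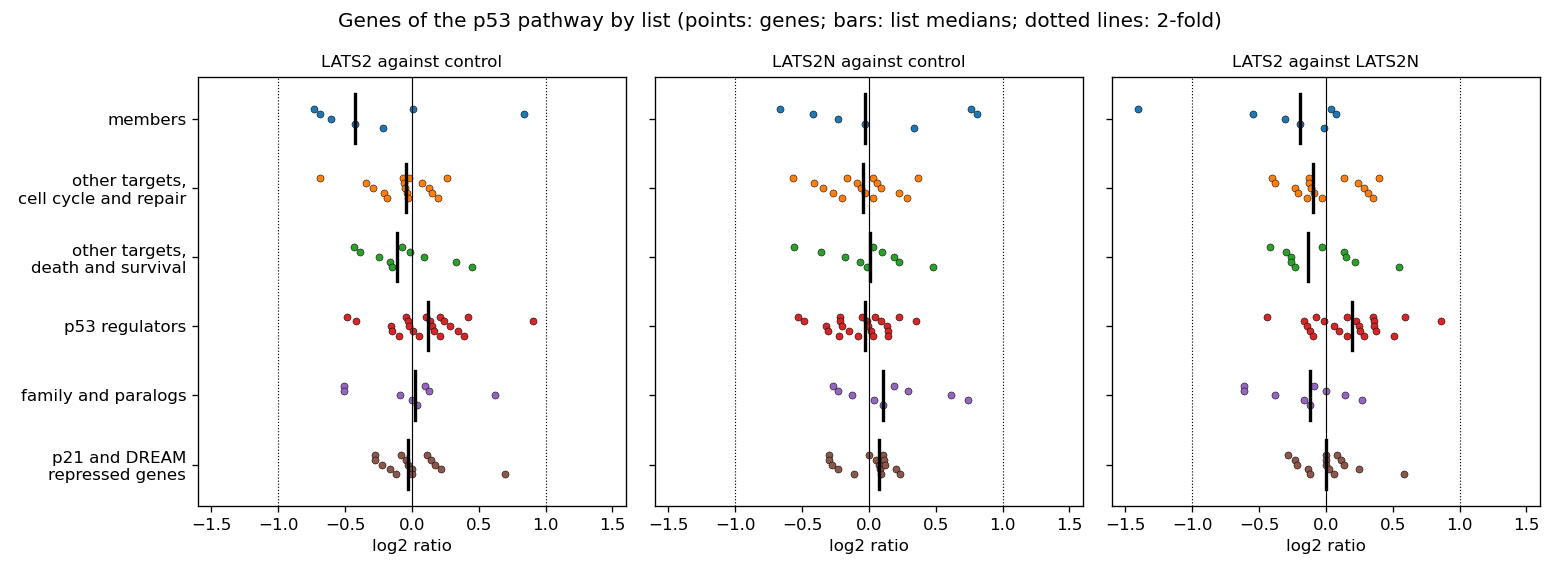
Log2 ratios of single genes (points) and list medians (black bars) for the members and 5 lists of the p53 pathway, with a panel for LATS2 over control, a panel for LATS2N over control and a panel for LATS2 over LATS2N. The members' median on LATS2 against control, -0.43, lies left of the other 5 medians, which run from -0.11 to 0.12, and only PHLDA3 in LATS2 against LATS2N passes the dotted 2-fold lines. Members and lists were chosen with earlier results of these data known, so the distance between their medians is no test.

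The genes with the pattern most like CDKN1A and PHLDA3 were sought among 4918 genes that read at least 200 on every array and whose probe sets had 1 direction, by the Euclidean distance between pairs of log2 ratios against control. Over 3 arrays such likeness rests on a pair of values. PHLDA3 itself would not pass these limits. Its pattern is that of 218634_at, at 85.0 on LATS2 and 129 on control, and its other probe set was not lower on LATS2 than on control. The nearest to CDKN1A were PARG, at a distance of 0.01, CHD7 at 0.07, INHBB and CMIP at 0.14, and DNAJC24 at 0.14. PARG, which degrades poly(ADP-ribose), read 660 on LATS2 and 676 on LATS2N, against 1071 on control. The nearest to PHLDA3 were the chemokine genes CXCL1, at 0.13, and CXCL8, at 0.20, followed by LEMD1 at 0.26, TFF3 at 0.27 and SLC39A11 at 0.33. TFF3, a trefoil peptide of goblet cells, read 241 on LATS2 and 561 on LATS2N, against 384 on control. SLC39A11, a zinc transporter, read 568 and 1210 against 868.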

How the data were processed

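Gene expression was measured on 3 one-colour Affymetrix arrays, 1 per group. Per the labels' protocols, biotinylated cRNA was made from total RNA. The authors deposited MAS5 signal intensities on a linear scale (MAS5 is named in the submitters' processing notes, without version or settings). The values show that every array had been scaled to a mean of 500, taken after trimming 2% at each end. Detection calls were not used here. Probe sets were named from the platform table (41091 with 1 symbol, 1801 with several), and symbols were updated through gene identifiers to RefSeq (GRCh38.p14, 41037 matched). Ratios, the floor, calls and the spread between probe sets were computed in Python 3.11.15 with numpy 2.4.6 and pandas 2.3.3 and checked on simulated data. The number of arrays limits the precision.

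From each fixed list the text names the 3 genes with the largest ratio against control among those above the floor on all 3 arrays, since no gene in them was called with both signals above the floor. Others are said to have been picked later. CDKN1A and PHLDA3 were each set beside their 5 nearest genes. The members, lists and limits were chosen with earlier results of these data known. Alternatives covered the probe set that stands for a gene, shared-target probe sets, the scaling, the floor and the size of the call.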

Additional observations from a re-analysis of the deposited data

How the results depend on the processing

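Of 60 alternative values of the main counts and medians, 45 stayed within the spread between probe sets or within 1.5 times the count, and 15 moved. With the median over probe sets the median of the members came to -0.24 on the log2 scale for LATS2 against control and to -0.033 for LATS2 against LATS2N. These medians rest on 5 and 6 members, against 7 in the main setting, so they do not cover the same genes. GDF15 fell out of both, and MDM2 out of LATS2 against control. No member was called between the constructs (a count of 0, with PHLDA3 at -0.82). Of the other p53 targets 1, PIDD1, was called higher for LATS2 and 1, the same gene, for LATS2N, both as bounds. The PIDD1 probe set that alters the median of that gene read 46.5 on LATS2 and 125 on LATS2N, against 6.74 on control. Without _x_at and _s_at probe sets only 4 members remained, with medians of -0.78 for LATS2 against control, -0.46 for LATS2N against control and -0.40 for LATS2 against LATS2N, and MDM2, then read by 217542_at alone, made 1 call. FAS was then read by 233820_at alone. Both of these probe sets lay below the floor on LATS2, at 48.3 and 26.6, so the medians that involve LATS2 rest partly on bounds. With a floor at the 25th percentile or none, 2 of 8 members were called for LATS2 against LATS2N, PHLDA3 lower and TP53INP1 higher. TP53INP1 read 37.8 on LATS2 and 17.4 on LATS2N, both below the main floor. With no floor 1 other target, SPATA18, was called higher on LATS2N, at 15.9 against 6.88 on control. The shares of all genes called at these floors are not given here. At 1.5-fold, 4 members and 1 other target, SESN2, were called for LATS2 against control, beside 10.3% of all genes. For LATS2N against control 3 members were called, beside 8.13%. Quantile normalization and centring moved none of these values beyond those limits. Of the single members' values, 12 of 113 moved, all under the alternative probe sets. The cause of these shifts, beyond the probe sets used and the members that remained, was not tested. No paired analysis was possible because each group has 1 array. No other array of a group was there to leave out.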
